A study of Rattus norvegicus with 3 samples.

Results

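The genes described here are 10 immediate early genes: Fos, Fosb and Fosl2 of the FOS family, Jun, Junb and Jund of the JUN family, Egr1, Ier2, Ier3 and Atf3. They were found by gene name in the deposited tables of gene levels per cluster of cells, and they are 10 of the 20896 gene names in those 3 tables together. Each stood on 1 identifier, the same in every table: Fos ENSRNOG00000008015, Fosb ENSRNOG00000046667, Fosl2 ENSRNOG00000052357, Jun ENSRNOG00000026293, Junb ENSRNOG00000042838, Jund ENSRNOG00000019568, Egr1 ENSRNOG00000019422, Ier2 ENSRNOG00000054344, Ier3 ENSRNOG00000000827 and Atf3 ENSRNOG00000003745.

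Immediate early genes are transcribed within minutes of a stimulus such as a growth factor, a cytokine or mechanical load, without new protein having to be made, and most of their mRNAs are short-lived. FOS and JUN proteins pair through leucine zippers to form AP-1, a transcription factor that in cartilage and bone drives collagenase and cytokine genes, while Egr1 encodes a zinc finger factor and Atf3 a stress-induced partner and repressor in the same family of zippers. The same genes are also switched on while a tissue is being digested into single cells, so a level measured after dissociation can hold both what the joint had and what the preparation added.

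The study measured single-cell RNA from condylar cartilage and subchondral bone of the temporomandibular joint of Sprague Dawley rats. Unilateral anterior crossbite (UAC), a dental appliance that loads the joint abnormally, served as the osteoarthritis model. There were 3 groups: sham rats without the crossbite given Vector AAV, UAC rats given Vector AAV, and UAC rats given AAV carrying miR-330, so every group, the sham group too, had an adeno-associated virus injected into the joint. Each group was 1 library, made from 16 condyles of 8 rats mixed together (24 rats in all), so animals cannot be told apart and no spread between animals exists. The sham library held 77668015 UMIs (unique molecular identifiers, each 1 counted mRNA molecule) in 15 clusters, the UAC library 92629658 in 18 clusters and the UAC + miR-330 library 97255383 in 19 clusters. The clusters were made separately in each library, their cell numbers are unknown, doublets were not treated and free RNA was not subtracted.

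Levels are UMIs of a gene scaled to a total of 1000000 UMIs in a cluster or set of clusters (CPM). With 1 library per group there is no test: each level has an exact Poisson 95% interval that covers counting error only. A gene is said to have risen or fallen when its level differed by at least 1.5 times between the 2 libraries and the intervals did not overlap, provided the set held at least 100 UMIs of it over both libraries, and the same rule was applied to every gene for the background shares. Median ratios of the members are over all members, also those under 100 UMIs in a set. Medians of all genes are over genes with at least 100 UMIs. Both comparisons use the UAC library, UAC against sham asking what the crossbite came with and UAC + miR-330 against UAC what the miRNA came with, so a level that was by chance high or low in the UAC library moves them in opposite directions.

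The labelled tissue was present, beside much bone marrow. In each library 1 cluster carried the cartilage markers, with 17 of 20 chondrocyte markers enriched with sham, 18 with UAC and 19 with miR-330, and Matn1 at 0 in both UAC libraries. This chondrocyte-like cluster also carried 10, 11 and 11 of 12 osteogenic markers, and Col1a1 stood at 57395, 46960 and 49062 CPM there, next to Col2a1 at 27180, 19379 and 24344, so cartilage, bone-forming and fibroblast cells within it were not resolved. A macrophage-marker cluster had 13 of 14 macrophage markers enriched in every library. In all, 9 sets of clusters could be matched over the 3 libraries and 3 more over the UAC libraries alone: a T and NK marker set, a set with Cxcr5, Fcrl5 and Sh3gl2 among its leading genes (the Cxcr5 set) and a defensin-led set, while 1 cluster in each library (1.99%, 3.69% and 2.92% of its UMIs) stayed unmatched. The other matched sets were a late neutrophil set, an Lcn2 neutrophil set, an erythroid-marker set, and 4 more named Dntt (a gene among its 10 leading ones in each library), mitotic, resting B-lineage and Ms4a1-led. The markers within some sets differed between libraries. In the Cxcr5 set 6 of 11 dendritic markers were enriched with UAC and 4 with miR-330, with none among the 10 leading genes of the latter. T and NK markers were the list with the most enriched genes in the Ms4a1-led (8) and Dntt (9) clusters of the sham library, which had no T and NK marker cluster of its own. Endothelial markers were that list in the Dntt cluster of both UAC libraries (7 and 8, beside 6 B-lineage markers in each), with Egfl7 and Erg among the leading genes with UAC and Emcn and Flt1 with miR-330, so the content of this set differed between libraries.

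With UAC, Jun was the member that rose in the most places, in 5 of the 9 matched sets, and it fell in the macrophage-marker cluster. Fos, Jun, Junb and Atf3 rose in the chondrocyte-like cluster, whereas in the macrophage-marker cluster Egr1, Fosb and Jun fell and Fosl2 rose. Of 90 pairs of a member and a matched set, 81 had enough UMIs; 13 of these (16%) rose and 3 (3.7%) fell. Over all genes the shares of such pairs were 3.26% and 2.2%, so the members' share of rises stood well above the background and their share of falls close to it. The background, here and further on, was not matched to the members for UMI number. Genes with few UMIs have wide intervals and pass the rule less easily, and the part of this in the difference was not tested. Where levels were compared as deposited mean counts, which added 0.20 to every log2 ratio, 28 pairs rose and 1 fell, 96.6% of calls being rises in place of 81.2%.

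The 13 rises with UAC lay in 6 of the 9 matched sets. The chondrocyte-like cluster had 4 of 10 members rising against 7.16% of its genes, and none falling against 0.824%; the members' median log2 ratio was 0.50 and that of all genes 0.12. With ratios centred on the latter only 1 of the 4 was still past 1.5 times, and with a fold of 2 none was. In the macrophage-marker cluster 1 of 10 rose (2.61% of genes) and 3 fell (5.51%), with medians of −0.13 and −0.04. The late neutrophil set had 2 of 10 rising, Fosb and Jun, against 1.24% of genes, at medians of 0.10 and −0.11, the former turning to −0.45 or 0.44 with 1 of its 2 UAC clusters left out. The chondrocyte-like and macrophage-marker clusters thus both stood above their background, mainly in opposite directions.

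Jun also rose with UAC in 3 other marrow sets. It was the only 1 of 8 members tested to rise in the Lcn2 neutrophil set (3.24% of genes), and Jun and Jund were the 2 of 9 that rose in the erythroid-marker set (4.55%). The Dntt set had 3 of 8 rising, Fos, Fosb and Jun, against 3.41% of genes, with a median of 0.56 for the members and 0.06 for all genes. No member rose or fell in the mitotic (2.36% of genes rose), resting B-lineage (2.01%) or Ms4a1-led (1.71%) sets. Over all clusters added together only Fosl2 of the 10 rose, against 5.92% of genes, and this rise was no longer past 1.5 times with mean set shares, whereas Jun then was, as given further on.

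With miR-330, directions differed by gene and by set. Fos, Fosb, Fosl2 and Egr1 rose in neutrophil sets, Fos and Fosb in other marrow sets too and Fosb and Egr1 in the macrophage-marker cluster. Atf3 rose in the joined late neutrophil set, a rise held by neither of its pairs of clusters, as described further on. Junb, Jund, Ier2, Ier3 and Atf3 fell in the chondrocyte-like cluster, where Fosl2 was the only member to rise. Of 81 pairs with enough UMIs, 17 (21%) rose and 11 (13.6%) fell, against 10.7% and 2.97% of pairs over all genes. Both shares were above the background, that of falls by the wider margin. The split depended on the scale: deposited mean counts, 0.24 higher for every gene, gave 27 rises and 5 falls (84.4% rises against 60.7%), and ratios centred on the median of all genes gave 12 rises and 15 falls (44.4%). No pair that rose or fell in either comparison changed direction on any of these scales.

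Set by set, the falls with miR-330 stood clear of the background in the chondrocyte-like cluster, and the rises in neutrophils came beside rises of many other genes. In the chondrocyte-like cluster 5 of 10 members fell against 5.64% of genes and 1 rose against 6.99%, at a median of −0.57 for the members and 0.02 for all genes. The macrophage-marker cluster had 2 of 10 rising, Fosb and Egr1 (11.2% of genes), and 2 falling, Junb and Ier3 (2.27%), at medians of 0.16 and 0.17. In the late neutrophil set 5 of 10 rose, and in the Lcn2 neutrophil set 4 of 9, but 23.2% and 22.7% of all genes rose there too. The members' medians were 0.48 and 0.13, and that of all genes was 0.29 in each. The 0.13 includes Atf3 (−0.21), which was under 100 UMIs in the Lcn2 neutrophil set. Without Atf3 the middle ratio there was that of Jun, 0.25, close to all genes. The late neutrophil median depended on single clusters: with 1 of them left out it ran from −0.36 to 0.94, and in the Ifit-led and Mmp9 pairs described further on it was 0.45 and −0.02. The last value includes Atf3, which was under 100 UMIs in the Mmp9 pair. Many genes thus rose in neutrophils with miR-330, the members among them.

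The remaining sets moved in fewer members. The erythroid-marker set had Fos rising (1 of 9, with 12.2% of genes) and Jund falling (1 of 9, with 2.04%), and the mitotic set had 2 of 9 rising, Fos and Fosb (6.06%). In the resting B-lineage set 1 of 9 rose, Fosb (7.15%), and 2 fell, Ier3 and Atf3 (3.48%), in the Ms4a1-led set 1 of 8 rose, Fosb (6.75%), and in the Dntt set 1 of 7 fell, Junb (3.74%). In the sets found only in the UAC libraries, 1 of 8 members rose with T and NK markers, Egr1 (13.8%), 2 of 9 in the defensin set, Fos and Fosb (21.5%), and 2 of 7 fell in the Cxcr5 set, Jun and Jund (4.97%). Single rises among 8 or 9 members lay near these backgrounds. The defensin-led cluster also changed in cell content: the mast cell and basophil list, with 8 and 9 of 11 genes detected, summed to 40.9 CPM with UAC and 10735 with miR-330, led by Ms4a2 (15.2) and Mcpt10 (7895), with Fcer1a and Tpsab1 at 0 with UAC and Tpsab1 at 0 with miR-330. Fos went there from 42.8 to 67.8 and Fosb from 40 to 111, and Fosb stood at 358 in the unmatched UAC cluster that carried 10 of the mast cell and basophil markers; the part of these cells in the rise was not tested. Over all clusters 1 of 10 fell, Ier3, against 2.86% of genes.

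**Figure D1:**
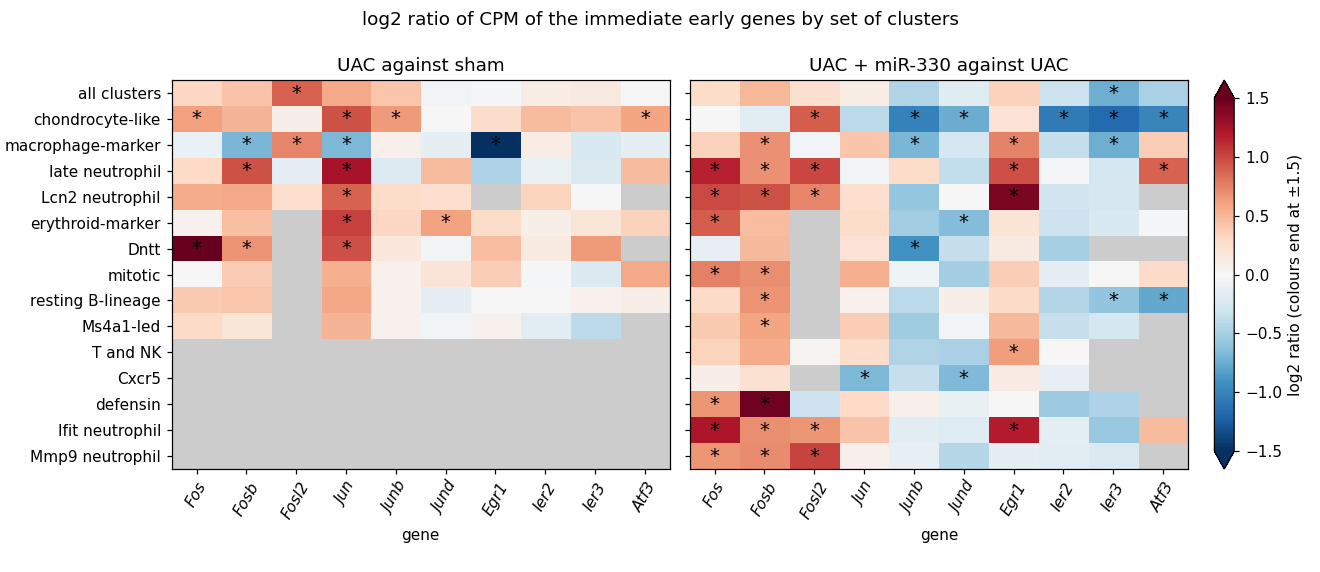
Log2 ratio of CPM of the 10 members (columns) in all clusters and in each set of clusters (rows), for UAC against sham and for UAC + miR-330 against UAC; colours end at ±1.5, an asterisk marks a rise or fall by the 1.5-fold rule, and grey marks under 100 UMIs or no such cluster. With UAC the Jun column is above 0 in every matched set but the macrophage-marker one (−0.67), and with miR-330 the chondrocyte-like row is mostly below 0 while Fosb is above 0 in the other 8 matched sets.

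Whether these rises and falls were shared by all clusters was read from the members' log2 ratios set against each other between sets, each difference with a 95% interval from counting error. No member rose or fell in every matched set in either comparison. With UAC, Jun differed between sets by an interval without 0 in 28 of 36 pairs of sets, and past 1.5 times in 11, and Fos did so in 25 and 11 of 36, while Junb and Ier2, at 23 and 28, passed 1.5 times in only 1 of 36 each. With miR-330 the counts were 28 and 15 of 36 for Fos, 30 and 11 for Junb, 21 and 8 for Fosb, and 7 past 1.5 times for each of Jun, Jund and Ier2. The ratios thus differed between classes beyond counting error, by amounts that depended on the member.

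The ratios of Jun with UAC overlapped in some sets and differed in others. Its ratio in the chondrocyte-like cluster, 0.96, lay within counting error of the ratios in the Lcn2 neutrophil set (difference 0.08, interval −0.04 to 0.19) and the Dntt set (−0.01, interval −0.16 to 0.13). Against the macrophage-marker cluster the difference was 1.62 (1.48 to 1.77). Between the same 2 clusters Egr1 had a wider gap, 2.36 (2.07 to 2.65). With miR-330 the chondrocyte-like cluster stood apart from the other matched sets by more than 1.5 times for Fosb in 8 of 8, Ier2 in 7 of 8, Jun in 6 of 8, Ier3 in 5 of 7 and Atf3 in 4 of 5, but for Fos in 4 of 8, Junb and Jund in 3 of 8, Egr1 in 2 of 8 and Fosl2 in 1 of 3. Whether handling of the tissue differed between the 3 preparations was not tested, and since each group was 1 preparation it cannot be told apart from the group.

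Fos, the founding partner of AP-1, had its highest level of any cluster in the chondrocyte-like cluster of each library. It stood there at 819 CPM (800 to 838) with sham, 1256 (1228 to 1285) with UAC and 1264 (1236 to 1293) with miR-330. The rise with UAC, a log2 ratio of 0.62, was therefore still there with miR-330 (log2 ratio 0.01), and the intervals of the 2 UAC libraries overlapped. Its lowest clusters were resting B-lineage ones, 53.7, 111 and 74.9 times lower than the highest.

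Below the chondrocyte-like cluster the order of Fos levels shifted between libraries. The macrophage-marker cluster was next in the sham library at 505 CPM (481 to 529), the Cxcr5 cluster in the UAC library at 559 (529 to 590), and the interferon-gene neutrophil cluster in the UAC + miR-330 library at 695 (662 to 729). Among matched sets in the sham library the late neutrophil (182) and Ms4a1-led (122) sets followed, and from the Lcn2 neutrophils (44.6) to the Dntt set (33.3) neighbouring intervals overlapped. The late neutrophil set held 182, 225 and 507 CPM, a log2 ratio of 1.17 with miR-330, the erythroid-marker set 39.6, 41.6 and 78.5 (0.91), and the Lcn2 neutrophils 44.6, 65.6 and 130 (0.99). Their ratios with UAC were 0.30, 0.07 and 0.56, the last of them, in the Lcn2 neutrophils, within counting error of the chondrocyte-like 0.62 (difference 0.06, interval −0.19 to 0.32). The Dntt set had the largest rise of Fos with UAC, from 33.3 (27.7 to 39.6) to 99.7 (89.2 to 111), and it stood at 91.8 with miR-330. Endothelial markers in that set summed to 191, 226 and 286 CPM, with 6, 9 and 9 of 10 detected, Egfl7 leading at 123 and 116 and Tie1 at 85.2, and Cdh5, Kdr and Cldn5 at 0 with sham; progenitor markers, led by Meis1, summed to 29.8, 121 and 96.8, T and NK markers, led by Lck, to 415, 209 and 213, and B-lineage markers, led by Ebf1, to 17782, 16458 and 20763. The part of these in the rise was not tested. The share of all Fos UMIs that lay in the chondrocyte-like cluster went from 58.5% to 40.3% and 31.3%, while that cluster's share of all UMIs went from 11.6% to 6.46% and 6.05%; fewer cells of a class and less RNA per cell cannot be told apart in these data.

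Fosb, a FOS protein with a strong activation domain, had its highest level outside cartilage: in the sham library with macrophage markers at 478 CPM (455 to 502), and in the T and NK marker cluster of both UAC libraries at 759 (723 to 796) and 1121 (1078 to 1165). In the macrophage-marker cluster it went from 478 to 296 (282 to 310) and back to 476 (459 to 494), so that the sham and UAC + miR-330 intervals overlapped. The fall was −0.69 and the rise 0.68 on the log2 scale. The chondrocyte-like cluster held 363, 518 and 464 CPM, log2 ratios of 0.51 and −0.16, neither of them past 1.5 times. With miR-330, Fosb rose in 6 of the 9 matched sets, the most of any member, and the chondrocyte-like cluster was the only one with a ratio below 0; on deposited mean counts that ratio too would lie above 0. Examples were the resting B-lineage set at 87, 116 and 185 CPM and the mitotic set at 57.1, 74.3 and 121. Both rested on single clusters: without cluster 1 of the UAC + miR-330 library the resting B-lineage ratio of 0.67 was 0.25, and without cluster 12 the mitotic ratio of 0.70 was 0.46.

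Fosl2, which encodes a FOS protein (FRA-2) active in bone and cartilage cells, was scarce in most B-lineage clusters, with enough UMIs in only 4 of the 9 matched sets in each comparison. Its highest cluster was the macrophage-marker one in the sham library at 55.8 CPM (48.2 to 64.4) and in the UAC library at 93 (85.4 to 101), overlapping the late neutrophil cluster (51.2) and the T and NK marker cluster (75.3) that came next. In the UAC + miR-330 library it was the interferon-gene neutrophil cluster, at 116 (103 to 130). A resting B-lineage cluster had 0 UMIs of Fosl2 in the sham library and another did so with miR-330. The macrophage-marker level rose with UAC (log2 ratio 0.73) and was 90.5 with miR-330, and the chondrocyte-like level was 11.2, 11.9 and 22.4 CPM, a rise of 0.91 with miR-330 that rests on 71 and 132 UMIs. Fosl2 was thus the only member whose chondrocyte-like level rose with miR-330.

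Jun, the main JUN partner of FOS proteins, was spread over many clusters, with highest and lowest levels 5.25, 7.43 and 3.96 times apart. In the sham library its highest level was in the unmatched cluster (436 CPM, 403 to 470), which overlapped a resting B-lineage cluster at 420 (397 to 443). In both UAC libraries a resting B-lineage cluster was highest, at 930 (886 to 975) and 666 (634 to 700), followed by the chondrocyte-like cluster at 793 (771 to 816) and 602 (582 to 622), with intervals apart. The chondrocyte-like level of Jun was 409 CPM (396 to 423) in the sham library, so its 3 levels were all apart and the UAC + miR-330 level lay between the others. The log2 ratio with miR-330 was −0.40, short of 1.5 times.

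Several marrow sets had Jun higher with UAC, and as high or higher with miR-330. The Lcn2 neutrophils held 272, 501 and 595 CPM, the erythroid-marker set 82.9, 170 and 206, and the Dntt set 196, 383 and 447, for rises with UAC of 0.88, 1.03 and 0.97. The resting B-lineage set (283, 424 and 445), the mitotic set (140, 203 and 297) and the Ms4a1-led set (133, 189 and 244) had UAC ratios of 0.58, 0.53 and 0.51, just short of 1.5 times. The macrophage-marker cluster went the other way, at 259 (242 to 277), 163 (153 to 173) and 218 (207 to 230). No matched set had Jun rising or falling with miR-330, and in the Cxcr5 clusters of the UAC libraries it fell from 322 to 202.

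Junb, a JUN protein that can oppose Jun on shared targets, was highest in the sham library in macrophage-marker cells, at 1203 CPM (1166 to 1241). In the UAC library the T and NK marker cluster led at 2073 (2013 to 2134), and with miR-330 the Cxcr5 cluster led at 1541 (1498 to 1586), overlapping the T and NK marker cluster at 1517. The lowest clusters were the Lcn2 neutrophils or the defensin-led cluster, 12.3, 22.8 and 19.7 times lower. Chondrocyte-like Junb went from 527 CPM (512 to 542) to 819 (796 to 842) and then 406 (390 to 423), so the level with miR-330 was below sham. It also fell with miR-330 in the macrophage-marker cluster, from 1268 to 791 (log2 ratio −0.68), and in the Dntt set, from 305 to 162 (−0.91), in which sets it had not risen with UAC (1203 and 273 CPM in the sham library). The late neutrophil set, at 693, 600 and 724 CPM, was the only matched set with a ratio above 0 with miR-330 (0.27), but in its Ifit-led and Mmp9 pairs taken singly, as described further on, the ratios were −0.16 and −0.12; on deposited mean counts, 0.24 higher, ratios nearer to 0 than that would also turn positive.

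Jund, the JUN gene with the steadiest transcription, kept its highest level in resting B-lineage clusters: 3494 CPM (3430 to 3560), 3575 (3488 to 3664) and 3427 (3353 to 3502). The highest and lowest clusters were 5.99, 7.39 and 7.63 times apart, the lowest being the Lcn2 neutrophils or the defensin-led cluster. In the chondrocyte-like cluster it was 1137 CPM (1115 to 1159), 1127 (1100 to 1154) and 669 (649 to 691). UAC and sham levels overlapped there, so the fall with miR-330 (log2 ratio −0.75) took Jund below both. It fell in the erythroid-marker set too, from 962 to 614 (−0.65) after a rise from 633 with UAC (0.60), and in the Cxcr5 clusters from 2132 to 1350. In the resting B-lineage set it was 2679, 2408 and 2556, with no rise or fall.

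Egr1, a zinc finger factor induced through serum response factor, was highest in the chondrocyte-like cluster of each library: 174 CPM (166 to 183), 208 (197 to 220) and 242 (230 to 255). The next were the macrophage-marker cluster in the sham library at 109 (98.5 to 121) and the Cxcr5 clusters at 194 (176 to 212), which overlapped the chondrocyte-like level, and 211 (195 to 228), which did not. Its chondrocyte-like ratios of 0.26 and 0.22 were both short of 1.5 times. The macrophage-marker cluster had the largest change of any member with UAC, from 109 to 25.4 (21.5 to 29.8), a log2 ratio of −2.10 (−2.38 to −1.83), and it rose again to 42.4 (37.4 to 48) with miR-330, still below sham. With miR-330 the ratio of Egr1 was above 0 in all 9 matched sets and in 3 it rose. These were the macrophage-marker (0.74), late neutrophil (0.97) and Lcn2 neutrophil (1.41) sets, the last from 5.87 to 15.7 CPM. The late neutrophil rise was not in both kinds of cluster described further on: the ratio was 1.18 in the Ifit-led pair and −0.15 in the Mmp9 pair. Centring on the median of all genes takes 0.29 from the ratios of the neutrophil sets and 0.17 from the macrophage-marker one.

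Ier2, a small nuclear protein gene of the early response, had its highest and lowest clusters 3.76, 3.66 and 5.46 times apart. Its highest levels were in the Ms4a1-led (534 CPM) and late neutrophil (533) clusters of the sham library, which overlapped, and in the interferon-gene neutrophil cluster of both UAC libraries at 643 (610 to 678) and 584 (554 to 615). No matched set had a rise or fall of Ier2 with UAC. In the chondrocyte-like cluster it was 160 CPM (152 to 169), 223 (212 to 236) and 107 (98.8 to 116), and this last level was the lowest of the 19 clusters. The fall of −1.06 there was the only one of Ier2 with miR-330, although its ratio was below 0 in all 9 matched sets, from −0.03 in the late neutrophils to −0.36 in the macrophage-marker cluster and −0.50 in the Dntt set; on deposited mean counts those within 0.24 of 0 would be positive.

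Ier3, a stress-response gene that restrains apoptosis and is induced by inflammatory signals, was highest in late neutrophil clusters of every library: 466 CPM (442 to 491), 595 (564 to 628) and 400 (376 to 426). The next clusters, macrophage-marker in the sham library and the Mmp9 neutrophils in the UAC libraries, were at 233, 304 and 260, with intervals apart. It was lowest in the Cxcr5 clusters of the UAC libraries, at 5.16 and 3.88 CPM, and in the Dntt cluster of the sham library, at 13.2. The chondrocyte-like cluster held 206 CPM (197 to 215), 277 (264 to 291) and 123 (115 to 133), and the macrophage-marker cluster 233 (217 to 250), 199 (188 to 211) and 120 (111 to 129). With miR-330 Ier3 thus fell below sham in both, at log2 ratios of −1.17 and −0.73 against UAC, and it did not rise or fall with UAC in any matched set. It fell in the resting B-lineage set as well, from 19 to 12.6 (−0.59), a fall no longer past 1.5 times without cluster 1 of the UAC + miR-330 library (−0.47).

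Atf3, the stress-induced ATF partner, was the member most confined to the chondrocyte-like cluster by share of its own UMIs: 75.2%, 63.3% and 42%. Its level there was 277 CPM (267 to 288), 416 (400 to 433) and 209 (198 to 221), and it was the highest of all clusters in each library. The macrophage-marker cluster came next with 141 (129 to 154), 129 (120 to 139) and 168 (157 to 178), its intervals apart from the chondrocyte-like ones. Atf3 rose with UAC in the chondrocyte-like cluster (0.59) and fell with miR-330 to below sham (−0.99). In the macrophage-marker cluster the ratio with miR-330 was 0.37, short of 1.5 times, and other matched sets held 41 CPM or less. Only 6 of the 9 matched sets had enough UMIs of Atf3 in each comparison; a fall in the resting B-lineage set (−0.77) was −0.57 without cluster 1 of the UAC + miR-330 library.

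**Figure D2:**
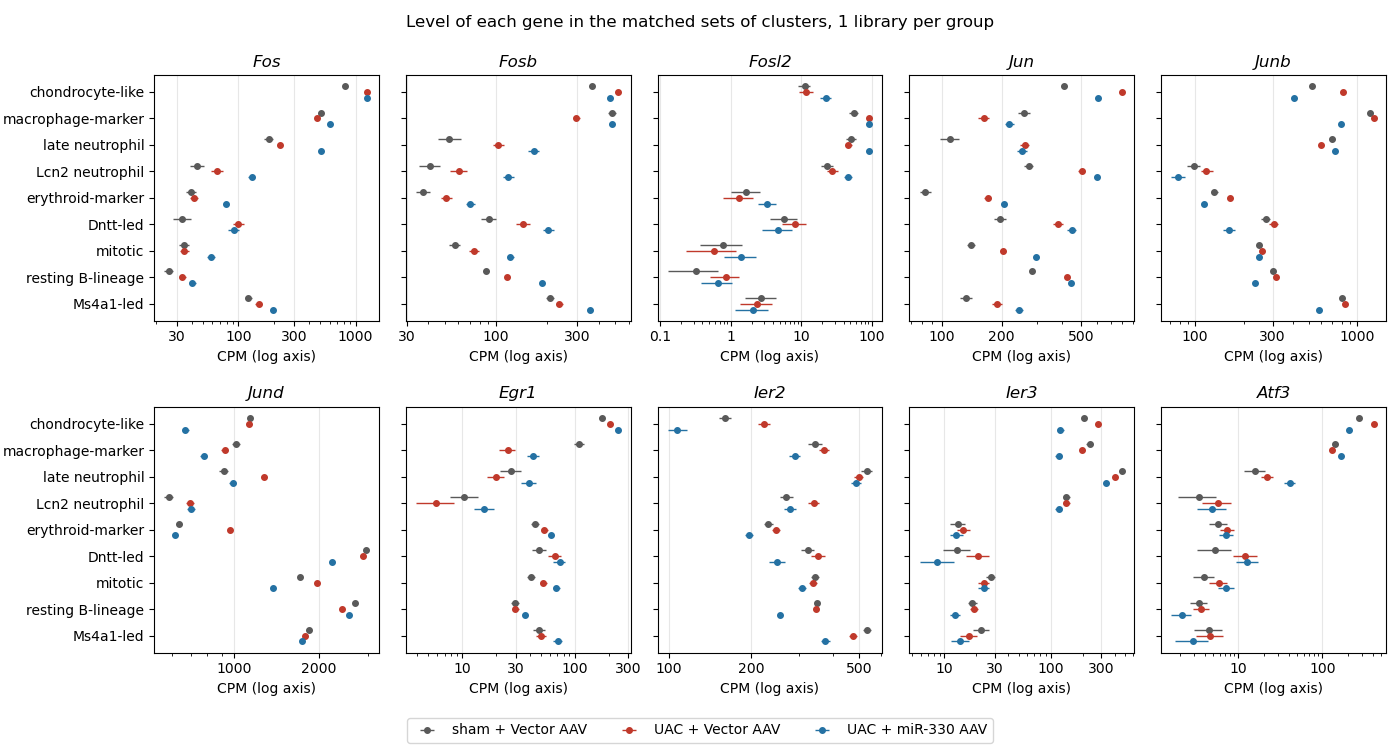
Level in CPM (log axis) of each of the 10 members in the 9 matched sets of clusters, with the 3 libraries by colour and bars for exact Poisson 95% intervals. Fos, Jun, Egr1 and Atf3 are highest in the chondrocyte-like set of every library, with Jun overlapping the Lcn2 neutrophils with miR-330. Ier3 is highest in the late neutrophils (466 CPM in the sham library), and Egr1 drops in the macrophage-marker set from 109 to 25.4 with UAC.

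The late neutrophil set joins clusters of unlike kinds in different proportions, so its ratios hold a change of mix. The sham library had 1 such cluster (8), whose leading genes included Ifit3; both UAC libraries had an interferon-gene (Ifit-led) cluster and one with Mmp9 among its 3 leading genes (the Mmp9 cluster), which were 2.39% and 4.78% of UMIs in the UAC library and 2.51% and 2.24% with miR-330. Compared pair by pair between the UAC libraries, Fos rose from 300 to 695 CPM in the Ifit-led pair (1.21) and from 188 to 297 in the Mmp9 pair (0.66), Fosb from 97.6 to 159 (0.70) and from 106 to 173 (0.71), and Fosl2 from 73.2 to 116 (0.66) and from 33.2 to 66.7 (1.01). These 3 FOS genes rose in both kinds of late neutrophil, where the median ratio of all genes was above 0 too. It was 0.19 in the Ifit-led pair and 0.28 in the Mmp9 pair, and the ratios of the FOS genes given here are not centred on it. Egr1 rose in the Ifit-led pair alone, from 26.7 to 60.7 (1.18), and was 16.5 and 14.7 in the other.

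Counted against all genes, 4 of 10 members rose in the Ifit-led pair (14.1% of genes) and 3 of 9 in the Mmp9 pair (21.7%). The rise of Atf3 in the joined set, 0.89, was held by neither pair: it was 0.48 in the Ifit-led pair, not past 1.5 times, and under 100 UMIs in the other. The UAC rise of Jun in the joined set, from 110 to 260 CPM (1.24), rested on the Mmp9 cluster, where Jun was at 328, against 125 in the Ifit-led cluster; without the former it was 0.19. Fosb, in contrast, stood at 97.6 and 106 in the 2 UAC clusters and at 53.1 in the sham cluster.

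Other cell types' markers differed between libraries in the macrophage-marker cluster and moved with the fall of Egr1, Fosb and Jun there. The macrophage list, 13 of 14 genes found, summed to 3708, 2315 and 2400 CPM, with C1qa (655), Cd68 (479) and Aif1 (467) as its most abundant genes. Mast cell and basophil markers, 10, 9 and 7 of 11 detected, summed to 617, 18.2 and 12.4 CPM, the most abundant being Mcpt10 at 271, 8.69 and 5.35; Tpsab1 was at 0 in the UAC library, and Fcer1a, Tpsab1 and Prss34 in the UAC + miR-330 library. Erythroid markers summed to 113, 13.1 and 11.9, and B-lineage markers, led by Ebf1, to 1094, 668 and 703. In the unmatched cluster of the sham library mast cell and basophil markers were the list with the most enriched genes. None of them was among its 10 leading genes, which included Igh-6 and the haemoglobin genes Hba-a1, Hba-a2 and Hbb. Its levels thus do not stand for mast cells alone. Egr1 stood at 42.6 CPM (32.9 to 54.2) in that cluster and Fosb at 259 (234 to 285), below their 109 and 478 in the macrophage-marker cluster. Jun stood at 436 (403 to 470), above its 259 in the macrophage-marker cluster. The part of these other cells in the fall of the members was not tested.

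Neutrophil RNA in the chondrocyte-like cluster was highest with UAC. The neutrophil list summed there to 1253, 4384 and 868 CPM, with 10, 11 and 10 of 11 genes detected, S100a9 leading at 495 and 1891 and S100a8 at 335 with miR-330, and Ltf at 0 in the sham and UAC + miR-330 libraries. These sums were 0.319%, 1.09% and 0.254% of the level in neutrophil clusters. The same share of neutrophil RNA would carry 0.667, 3.94 and 1.12 CPM of Jun, 1.05, 4.34 and 0.932 of Junb, and at most, for Jund, 2.28, 11.3 and 2.1. The measured levels in the cluster were 409, 793 and 602 CPM for Jun, 527, 819 and 406 for Junb and 1137, 1127 and 669 for Jund. S100a8 went up and down likewise in the resting B-lineage (474, 1006 and 373 CPM) and Ms4a1-led (374, 875 and 383) sets. It did so in the erythroid-marker set too (339, 600 and 375), so the shift was not particular to this cluster. No member rose with UAC in the resting B-lineage and Ms4a1-led sets, whereas Jun and Jund rose in the erythroid-marker set. In the Dntt set, where Fos, Fosb and Jun rose with UAC, S100a8 went down throughout (1138, 815 and 224). The part of neutrophil RNA in the members' rises and falls was not tested. Endothelial markers summed to 60.3, 12.9 and 11 CPM, and fibroblast markers to 10333, 9781 and 7367; the part of a changed mix of skeletal cells was not tested.

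Other genes of the early response gave similar directions in the chondrocyte-like cluster. Of 45 other immediate early and rapid feedback genes with enough UMIs, 17 rose with UAC beside 7.16% of all genes and none fell, at a median log2 ratio of 0.39 against 0.12 for all genes; with miR-330, 22 of 44 fell beside 5.64% and none rose beside 6.99%, at −0.61 against 0.02. Gadd45a, a stress gene that slows the cell cycle, was 15.2, 38.1 and 16.5 CPM (log2 ratios 1.33 and −1.21), Klf2, a zinc finger factor, 11.4, 26.1 and 16.8 (1.19 and −0.63), and Nfil3, a zipper repressor, 20, 39.1 and 16.1 (0.97 and −1.27). Dusp5, a MAP kinase phosphatase, was 8.31, 13.4 and 5.95 (0.69 and −1.16). Tnfaip3 had the largest rise of the list with UAC, at 4.43, 11.4 and 8.33 CPM (1.35 and −0.45), and did not fall by the rule with miR-330. Over all clusters Tnfaip3 rose in both comparisons (0.66 and 0.62). The genes of this list with most UMIs moved less: Btg1 was 276, 272 and 184 CPM, Btg2 229, 287 and 247, and Zfp36l2 205, 242 and 188.

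For that list in the macrophage-marker cluster, 2 of 44 rose with UAC beside 2.61% of all genes and 4 fell beside 5.51% (median 0.05, all genes −0.04). With miR-330, 2 of 45 rose beside 11.2% and 11 fell beside 2.27% (median −0.26, all genes 0.17). The difference between the 2 clusters in this list was not tested. Over all clusters 12 of 53 rose with UAC beside 5.92% of all genes and 1 fell (median 0.22, all genes −0.02). With miR-330, 4 rose and 6 fell there, the latter beside 2.86% (−0.13, all genes 0.13). For the 1 fall with UAC and the 4 rises with miR-330 no share of all genes is given here.

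Heat shock genes are also induced by tissue digestion. Of 13 in the chondrocyte-like cluster 1 rose with UAC, Hsph1, at 85.3, 153 and 136 CPM (0.84), where 7.16% of all genes did, and the list's median was 0.35 against 0.12. With miR-330, 2 of 13 fell, Dnajb1 (41.7, 53.2 and 31.9 CPM, −0.73) and Hspb1 (331, 395 and 246, −0.68), where 5.64% of all genes did, at a median of −0.08 against 0.02. The most abundant of the list, Hspa8, was 873, 836 and 662 CPM, and Hsp90ab1 was 631, 773 and 743. In the macrophage-marker cluster 1 of 12 rose with UAC, where 2.61% of all genes did, and none moved with miR-330. In the resting B-lineage set, where no member rose, 4 of 11 rose with UAC, Hsph1, Hsp90aa1, Hspd1 and Hspe1, against 2.01% of genes, at a median of 0.29 against 0.00, and none moved with miR-330. Late neutrophils had 1 of 8, Hsph1, rising with UAC, where 1.24% of all genes did, and falling with miR-330. Over all clusters Hsph1 rose with UAC (66.6 to 129 CPM, 0.96), where 5.92% of all genes did. Hspb1 fell there with UAC (−0.59) and with miR-330 (−0.76), the latter beside 2.86% of all genes. For the fall with UAC no share of all genes is given here. Within the chondrocyte-like cluster the ratio of Hspb1 with UAC was 0.26, while that cluster's share of all UMIs went from 11.6% to 6.46%. The part of this share in the fall was not tested. The difference between this list and the immediate early genes was not tested.

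In the chondrocyte-like cluster partners of AP-1 rose more often with UAC than all genes did, and its inputs changed in few genes. Of 16 other AP-1 and ATF partners with enough UMIs, 3 rose with UAC, among them Atf6 (88.2, 151 and 164 CPM) and Batf (13.7, 22.2 and 16.5), and none fell. With miR-330 only Fosl1, the fourth FOS gene, fell (10.5, 13.7 and 5.95 CPM, −1.19) and none rose. The list medians were 0.31 with UAC, against 0.12 for all genes, and −0.37 with miR-330, against 0.02. The most abundant partner, Atf4, was 353, 374 and 266 CPM. Of 18 genes of serum response factor, ELK factors and MAP kinases, which switch immediate early genes on, only Rps6ka3, a kinase downstream of ERK, rose with UAC (88.6, 143 and 123; 0.70) and none moved with miR-330, at medians of 0.25 and 0.05. Of genes known for AP-1 sites in joint tissue, 8 of 15 rose with UAC (median 0.67) and 5 of 14 fell with miR-330 (−0.40), and none moved the other way. These counts stood beside 7.16% and 5.64% of all genes of the cluster. Such moves were not particular to it. In the resting B-lineage set, where no member rose with UAC, 5 of 9 rose with UAC (median 0.73) beside 2.01% of all genes. With miR-330, 5 of 10 fell there beside 3.48% and 1 rose beside 7.15% (−0.74). The macrophage-marker cluster had 3 of 14 rising with UAC beside 2.61% and 2 falling beside 5.51% (0.31). With miR-330, 7 of 14 fell there beside 2.27% (−0.52). Late neutrophils had 1 of 10 falling with UAC, for which no share of all genes is given here. With miR-330, 1 of 10 rose there beside 23.2%. Among chondrocyte-like ratios of this list, the chemokines Cxcl1 (2.60) and Ccl2 (1.21) and the collagenase Mmp13 (1.55) rose most with UAC. Those falling most with miR-330 were Ccl2 (−3.36), Cxcl1 (−3.05) and the gelatinase Mmp9 (−2.81), which neutrophils also express. The chemokine levels behind these ratios were low, Cxcl1 at 9.09, 55.5 and 6.63 CPM and Ccl2 at 11.6, 26.9 and 2.55. The macrophage-marker cluster held 237, 508 and 117 CPM of Cxcl1 and 938, 771 and 353 of Ccl2. The part of macrophage RNA in the chondrocyte-like chemokine ratios was not tested. Among the most abundant, Spp1, the bone matrix protein osteopontin, was 1542, 2573 and 1914 CPM, a rise of 0.74 with UAC, and Vim 4680, 5423 and 3986.

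Levels over all clusters together also carry the shift in cluster shares. Fosl2 was 8.27, 15.3 and 18.1 CPM and rose with UAC (0.89, 0.75 to 1.02), but with both libraries weighted by the mean of their set shares the ratio was 0.44, short of 1.5 times. Atf3 was 42.9, 42.5 and 30.1, a ratio of −0.01 with UAC that became 0.40 with mean shares. Jun, at 223, 332 and 359, had a ratio of 0.57 with UAC, just short of 1.5 times, and of 0.60, just past it, with mean shares. Ier3, at 75.6, 82.5 and 49.7, fell with miR-330 by its own shares (−0.73) and was at −0.53, short of 1.5 times, with mean shares.

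Across the clusters of a library some members ran together. Between log2(CPM + 1) values of member pairs, over 15, 18 and 19 clusters that share their library and depth, Pearson's r was 0.93, 0.80 and 0.75 for Fos and Atf3, 0.73, 0.82 and 0.76 for Fosb and Junb, and 0.77, 0.82 and 0.72 for Fos and Fosb. Fosl2 and Jund ran in opposite directions, at −0.69, −0.53 and −0.64. Of 7348 other genes with at least 1000 UMIs in every library, the 8 whose levels followed the members' mean profile most closely were Zfp36 (0.85, 0.84 and 0.84), AABR07060133.1 (0.83, 0.76 and 0.78), Bambi, Shisa5, Rarg, Rnf144b, Dusp1 (0.82, 0.74 and 0.75) and Degs1, the last with a lowest r of 0.72. These are descriptions over clusters and not over animals.

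The miRNA given by the AAV has 2 mature arms in RefSeq, shown because it is the agent whose library is compared; capitals mark the seed, bases 2 to 8 from the 5′ end, and the 2 seeds differ. Their gene lies on chromosome 1 of GRCr8, 128 kb from the promoter window of Fosb. No other relation between the 2 was examined.
rno-miR-330-5p: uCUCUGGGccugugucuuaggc
rno-miR-330-3p: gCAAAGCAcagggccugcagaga

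Promoters were taken from RefSeq (GRCr8), from 250 bases before to 50 after the start. The set of promoters used held 6 of the 10 members: Fosb, Fosl2, Junb, Jund, Egr1 and Ier2. Those of Fos, Jun, Ier3 and Atf3 were not in that set and were not searched. Both strands were searched for the cyclic AMP response element TGACGTCA, to which ATF and AP-1 dimers bind, for its first 5 letters TGACG, for the AP-1 site TGANTCA and for the CArG box of serum response factor; TGACG lies within TGACGTCA. TGACGTCA was in 2 of the 6, Jund and Ier2, and in 1.83% of all 33469 promoters. TGACG was in 4 of the 6, Jund, Egr1, Junb and Ier2, and in 21.2%. TGANTCA was in none of the 6 and 7.33%, and the CArG box in Egr1 alone and 1.64%. The promoters of Junb, Jund and Ier2 are shown because these 3 genes fell together with miR-330 in the chondrocyte-like cluster. Egr1, which also has TGACG, did not fall there (log2 ratio 0.22), so TGACG does not mark the falling genes. They lie at chr19:40080876-40081175 (+) for Junb, chr16:18769722-18770021 (−) for Jund and chr19:40399123-40399422 (+) for Ier2. Capitals mark TGACG on either strand, and the whole TGACGTCA where present. A match is a description, not a site or a cause.
Junb: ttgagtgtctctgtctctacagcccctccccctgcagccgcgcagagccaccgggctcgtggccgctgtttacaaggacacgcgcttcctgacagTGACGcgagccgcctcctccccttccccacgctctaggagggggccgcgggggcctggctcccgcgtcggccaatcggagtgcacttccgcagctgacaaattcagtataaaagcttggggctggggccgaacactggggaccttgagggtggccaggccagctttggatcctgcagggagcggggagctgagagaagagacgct
Jund: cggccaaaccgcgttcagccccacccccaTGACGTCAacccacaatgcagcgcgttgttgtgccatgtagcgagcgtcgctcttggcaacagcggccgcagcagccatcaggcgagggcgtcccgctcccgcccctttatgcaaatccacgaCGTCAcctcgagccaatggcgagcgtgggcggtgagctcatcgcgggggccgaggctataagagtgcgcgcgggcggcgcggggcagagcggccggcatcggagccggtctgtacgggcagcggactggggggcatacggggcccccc
Ier2: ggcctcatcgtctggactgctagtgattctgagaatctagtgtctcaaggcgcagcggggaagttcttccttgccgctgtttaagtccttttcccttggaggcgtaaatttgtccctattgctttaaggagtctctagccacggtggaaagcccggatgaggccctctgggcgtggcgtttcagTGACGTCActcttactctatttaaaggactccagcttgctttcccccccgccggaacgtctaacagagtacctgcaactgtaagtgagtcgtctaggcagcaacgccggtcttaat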

How the data were processed

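Per the labels, each library was made with 10x Genomics 3′ chemistry from pooled condyles, and the submitters' processing notes name Cell Ranger 7.0, STAR and Seurat 4.0.1, with the builds GRCh38 and mm10; the gene identifiers in the tables are those of rat. The deposited tables give, for every gene and cluster, a signal: the mean count per cell as rescaled by the authors' software. Their columns of log2 fold change and adjusted p-value, each cluster against the rest, were not used. Within a cluster every mean was divided by the smallest mean above 0, which gave whole UMIs for 100% of values (tolerance 1e-06, largest distance 1.0e-07). UMIs were divided by the cluster's total to give CPM, and 0.5 UMI was added before ratios. Since 1 library per group gives no spread, no count model was run. Names on more than 1 identifier (101, 106 and 116) were summed, and mitochondrial genes were taken by name prefix.

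Sets of clusters were matched between libraries by markers, leading genes and profile, a rule settled after the tables had been seen. The members, the 5 gene lists and the 18 marker lists were chosen with earlier results of these data known. Named genes were all 10 members and, from each list, up to 3 genes with the most UMIs and up to 3 rising or falling most in the chondrocyte-like cluster; the lists' genes outside this rule were counted only. One result that this rule would name is not reported here. Alternatives were a fold of 2, minimums of 30 and 1000 UMIs, 5 UMIs added, deposited mean counts without rescaling, centring on the median of all genes, leaving out mitochondrial, ribosomal protein, haemoglobin and immunoglobulin genes, mean set shares and leaving out each cluster of a joined set. Splitting the late neutrophil set, and leaving out clusters for single members, were added after seeing the data. Promoters and miRNAs were from RefSeq (GRCr8). The calculations were tested on simulated data and used Python 3.11.15, numpy 2.4.6, pandas 2.3.3, scipy 1.17.1 and matplotlib 3.10.9.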

Additional observations from a re-analysis of the deposited data

Results flagged for a closer look

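For 3 members a change in one class of cells went the opposite way in another, by levels that each passed 1.5 times; these differences have intervals from counting error only and were not tested across animals. With UAC, Jun rose in the late neutrophil set (log2 ratio 1.24) and fell in the macrophage-marker cluster (−0.67), a difference of 1.91 (1.70 to 2.13); it rose in 5 matched sets and fell in 1. The neutrophil side rests on the Mmp9 cluster of the UAC library, without which it was 0.19. With UAC, Fosb rose in the late neutrophil set (0.95) and fell in the macrophage-marker cluster (−0.69), a difference of 1.64 (1.38 to 1.91). With miR-330, Atf3 rose in the late neutrophil set (0.89) and fell in the chondrocyte-like cluster (−0.99), a difference of 1.88 (1.55 to 2.21), and the rise rests on the mix of the 2 kinds of neutrophil: it was 0.48 in the Ifit-led pair and the Mmp9 pair had under 100 UMIs. Why these classes differed was not tested.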

How the results depend on the processing

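No paired analysis was possible because each group is 1 library and no test was run. Of 44 rises and falls in the matched sets, 36 were still past the rule on deposited mean counts, 35 after centring, 41 once genes of mitochondria, ribosomal proteins, haemoglobin and immunoglobulins were left out, 44 with a minimum of 30 UMIs, 29 with 1000 and 9 with a fold of 2, and none changed direction under these. With UAC the 13 rises over pairs of member and set became 3 with a fold of 2 and 28 on deposited mean counts, and the 3 falls 1 under either; the 4 rises in the chondrocyte-like cluster became 0, 7 and, centred, 1. The median over all clusters went from 0.22 to 0.41 on deposited mean counts and 0.31 with mean set shares, and the chondrocyte-like one from 0.50 to 0.69. With miR-330 the 17 rises became 2 with a fold of 2, 9 with 1000 UMIs and 27 on deposited mean counts, and the 11 falls 3 and 5 under the first and last of these; in the chondrocyte-like cluster the 1 rise became 0 with a fold of 2 or 1000 UMIs and the 5 falls 3 with a fold of 2. The medians went from −0.03 to 0.20 (all clusters) and from −0.57 to −0.34 (chondrocyte-like) on deposited mean counts, and over all clusters to −0.07 without the 4 gene classes above. Deposited mean counts add 0.20 or 0.24 to every ratio and a higher fold or minimum takes genes out, which accounts for those moves. With the late neutrophil set replaced by its 2 pairs, chosen after seeing the data, there were 19 rises and 11 falls. Leaving out clusters, partly chosen after seeing the data too, reversed late neutrophil values: with miR-330 Egr1 was −0.42 without cluster 6 of the UAC + miR-330 library, and Atf3 −0.44 without it and −0.14 without cluster 7 of the UAC library. Fos was 0.40 and Fosl2 0.52 without cluster 6, and Fosl2 0.34 and Egr1 0.54 without cluster 7, none past 1.5 times. The difference between chondrocyte-like and late neutrophil ratios of Junb turned to −0.27 with UAC (without cluster 7), and with miR-330 to 0.37 for Junb and 0.64 for Egr1 (without cluster 6). In the resting B-lineage set leaving out cluster 3 of the UAC library took Fosb to 0.36, Ier3 to −0.56 and Atf3 to −0.70, none then past the rule, and single calls there were also lost without clusters 1, 4, 6 or 10 of the UAC library or 3, 4 or 13 of the UAC + miR-330 library. Without cluster 12 Fos in the mitotic set was 0.51. The cause was not tested. Of 267 differences between sets with a cluster left out, 220 kept their direction and side of 0, 26 moved to an interval without 0, 18 lost it and 3 reversed. Low UMI numbers limit Fosl2, Ier3 and Atf3 in many clusters, and no interval here covers variation between animals or preparations.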

Other observations

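Ribosomal protein genes took 12.7% of all UMIs with sham, 11.4% with UAC and 9.66% with miR-330, and mitochondrial genes took 5.32%, 4.97% and 4.91%.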
